A study of Mus musculus with 8 samples.

Results

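The 10 genes described here encode the perilipins (Plin1, Plin2, Plin3, Plin4 and Plin5) and other proteins that sit on, build or guard lipid droplets (Cidea, Cidec, Hilpda, G0s2 and Bscl2). They were picked by name and not by a cut on their values, but with earlier results of these data known. The expression tables together listed 18040 genes, with 17740 in the HFD table and 16436 in the ND table. All 10 were listed in the HFD table and 9 in the ND table, which had no row for Cidea. RNA-seq libraries came from macrophages of the epididymal white adipose tissue (eWAT) of wild-type male C57BL/6J mice, either on chow (normal diet, ND) or after 8 weeks of high-fat diet (HFD). Adhesion-related macrophages (ARMs) were sorted from the floating adipocyte layer after its fat cells were broken by vortexing with beads, and stromal vascular fraction macrophages (SMs) were sorted from the pellet of the same digestion. Each of the 4 groups had 2 libraries, each pooled from 6 mice on HFD or 10 mice on ND, so the spread given below is between pools and not between single mice.

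Lipid droplets store triglyceride and cholesteryl ester under a single layer of phospholipid, and the perilipins are the proteins that coat that layer and control access of lipases to the fat inside. Plin1 and Plin4 are made mainly by adipocytes, where Cidec fuses small droplets into the single large one of white fat, whereas Plin2 and Plin3 coat droplets in most cell types, macrophages included. Hilpda and G0s2 encode small inhibitors of adipose triglyceride lipase (Pnpla2), and Bscl2 encodes seipin, which shapes new droplets at the endoplasmic reticulum.

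The libraries held 14508824 to 19040133 estimated counts. All 12 macrophage markers (among them Adgre1, Cd68, Csf1r and Lyz2) were tested in both diets and 0 were called different between ARMs and SMs by edgeR or DESeq2, although 6 in HFD mice and 1 in ND mice had an unadjusted p under 0.05 in edgeR. Of the 6 in HFD mice, 5 were lower in ARMs and 1 was higher. Among the lower ones, Cd163 had an edgeR adjusted p of 0.0107, but its log2 fold change of -0.395 was smaller than 1.5-fold. Summed levels are given in TPM (transcript level scaled for length and for each library's total). The macrophage markers summed to 35043 and 33072 TPM in HFD ARMs against 36596 and 35631 TPM in HFD SMs, which did not overlap. In ND mice the sums were 37667 and 38703 TPM in ARMs against 38272 and 38034 TPM in SMs. Here a gene is "called" when ARMs and SMs differ by more than 1.5-fold and its p, from the quasi-likelihood test of edgeR adjusted by the Benjamini-Hochberg method over all genes tested in that diet, is under 0.05.

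Ordered by level per transcript length, the members spanned from one of the most abundant transcripts of these cells to none or a few reads. Plin2 ranked first in every group, at 1242 to 1363 TPM in the HFD libraries and 615 to 767 TPM in the ND libraries, which placed it above 98.4% to 99.5% of the genes listed. Hilpda, Bscl2 and Plin3 followed in the range of 42.3 to 167 TPM. In HFD ARMs the order was Plin2, Hilpda, Bscl2, Plin3, Cidec, Plin4, Plin1, G0s2, Plin5 and Cidea, and the libraries of each gene lay apart from those of the next. In HFD SMs the libraries of Plin4 and Plin1 overlapped, as did those of Plin5 and Cidea, and G0s2 stood above both Plin4 and Plin1. In ND ARMs the libraries of Hilpda and Bscl2, of Plin4 and Plin1, and of Plin1 and G0s2 overlapped, while in ND SMs Bscl2 stood above Hilpda and no neighbours overlapped.

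**Figure D1:**
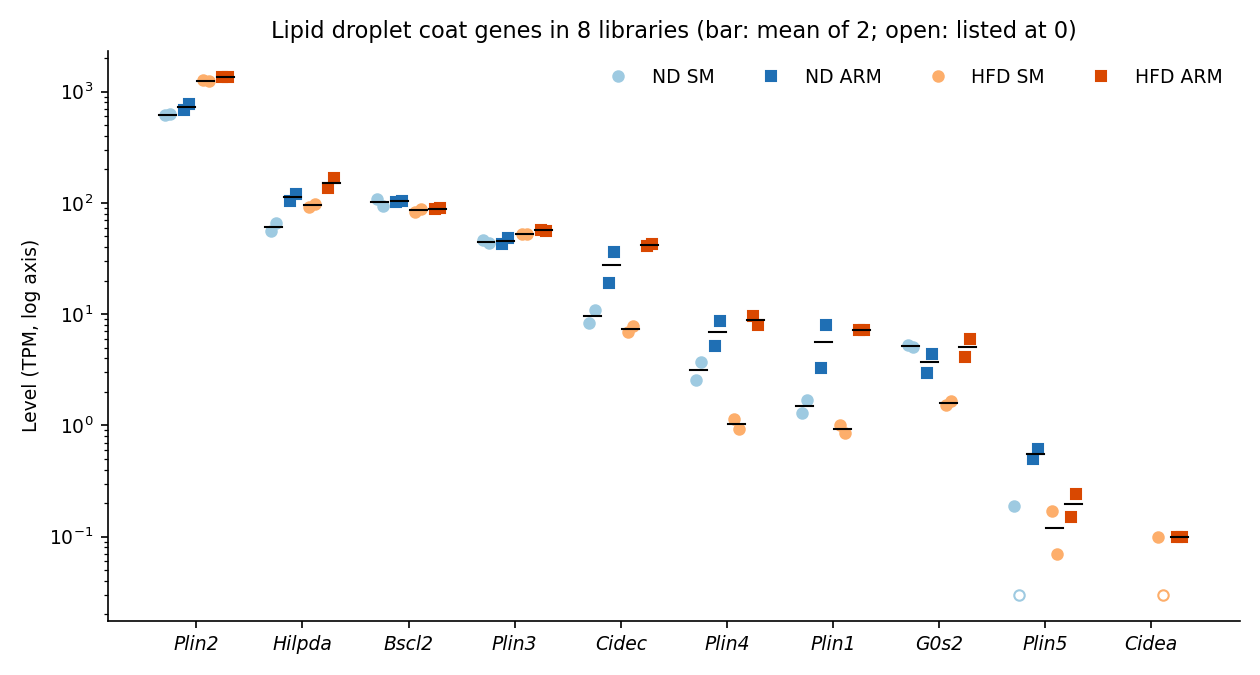
Level of each member in every library, in TPM on a log axis, with a point per library, a bar at the mean of 2 libraries and open points for values of 0, drawn at the foot of the plot. Plin2 lies near or above 615 TPM in every library, Cidec, Plin4 and Plin1 are higher in both ARM groups than in the SM group of the same diet, and Plin5 and Cidea lie under 1 TPM. Cidea has no ND points because the ND table had no row for it.

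In HFD mice, Plin1, Plin4 and Cidec were 5.69 to 8.35 times higher in ARMs than in SMs, and Hilpda (1.59-fold) and G0s2 (3.11-fold) were higher as well, while Plin2, Plin3 and Bscl2 were not called. This made 5 of the 8 members tested, where 4.46% of all 13337 genes tested were called higher in HFD ARMs. In ND mice, Plin1, Plin4, Cidec and Hilpda were higher in ARMs, 4 of the 8 members tested, against 3.55% of 12441 genes. The median log2 fold change of the 8 members was 1.15 on HFD and 0.52 on ND, beside -0.01 and -0.02 over all genes tested. The study singled out Plin1, Plin4, Cidec and Hilpda as lipid droplet genes raised in ARMs from these same libraries, so their count is not independent evidence of that direction. It also reported higher Plin1, Plin4 and Cidec in ARMs by RT-PCR, and more PLIN1-positive cells among ARMs by flow cytometry, in both diets. The study reports that ARMs take up adipocyte RNA, from cocultures with labelled adipocyte RNA and with Adipoq RNA stained in place. It counts Plin1, Plin4 and Cidec among transcripts likely from outside, as they rose without a matching gain in open chromatin. The source of the members' transcripts was not tested here. The other 2 members, Plin5 and Cidea, were too low for the test, and the 8 tested had 11 or more counts in every library.

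Plin1 (Entrez 103968; GRCm38 chr7:79721164-79732904, minus strand) encodes the founding perilipin, which holds back lipolysis in fat cells at rest. In HFD mice it was at 7.21 and 7.19 TPM in the ARM libraries and 1.0 and 0.86 TPM in the SM libraries, from 115 and 117 counts against 17 and 15. In ND mice it was at 3.30 and 7.94 TPM in ARMs and 1.28 and 1.68 TPM in SMs. Both ARM libraries stood above both SM libraries in each diet, and the ND ARM libraries differed from each other by more than the SM libraries of either diet did. The log2 fold change was 2.87 in HFD mice (95% interval 2.36 to 3.38, edgeR adjusted p = 5.94e-05) and 1.88 in ND mice (1.01 to 2.75, edgeR adjusted p = 0.0134). Leaving out ND ARM replicate 2 brought the ND value to 1.12 and leaving out ND SM replicate 1 brought it to 1.71, and it was no longer called in either case (highest edgeR adjusted p = 0.271).

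Plin4 (Entrez 57435; chr17:56100587-56109948, minus strand) encodes a perilipin with a long run of repeats that coats small nascent droplets of adipocytes. In HFD mice it was at 9.60 and 7.99 TPM in ARMs and at 1.13 and 0.93 TPM in SMs, the largest fitted change among the members, with a log2 fold change of 3.06 (2.75 to 3.37, edgeR adjusted p = 2.11e-06). In ND mice it was at 5.15 and 8.75 TPM in ARMs and at 2.58 and 3.74 TPM in SMs, a log2 fold change of 1.12 (0.65 to 1.59, edgeR adjusted p = 0.00683). The groups did not overlap in either diet. Without replicate 2 of the ND ARMs the ND value was 0.70 and was not called (edgeR adjusted p = 0.169). The end of the gene overlaps that of Hdgfl2 on the other strand, and strand use in the counting is not given in the sources used here. Hdgfl2 itself had a log2 fold change of 0.17 on HFD and one of -0.005 on ND, neither of them called.

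Cidec (Entrez 14311; chr6:113424634-113435760, minus strand) was the most abundant of the adipocyte-type members. It was at 41.2 and 42.7 TPM in HFD ARMs against 6.92 and 7.74 TPM in HFD SMs, from 604 and 629 counts against 105 and 115, a log2 fold change of 2.51 (2.29 to 2.73, edgeR adjusted p = 7.71e-07). In ND mice it was at 19.0 and 36.4 TPM in ARMs against 8.29 and 10.8 TPM in SMs, a log2 fold change of 1.5 (0.97 to 2.02, edgeR adjusted p = 0.00182). Both comparisons kept the call with any 1 library left out, although the ND value ran from 0.96 without replicate 2 of the ND ARMs to 1.90 without replicate 1.

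The 3 adipocyte-type genes moved together, so the DNA just before their outermost annotated starts is shown (RefSeq, GRCm38.p6, the same assembly as the mm10 build named in the submitters' processing notes). The stretches are, for Cidec, chr6:113435761-113435860, for Plin1, chr7:79732905-79733004, and for Plin4, chr17:56109949-56110032, each read on the minus strand. No base is in capitals because none of the 4 motifs searched was found in them.
Cidec: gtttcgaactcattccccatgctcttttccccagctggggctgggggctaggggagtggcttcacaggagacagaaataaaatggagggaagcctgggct
Plin1: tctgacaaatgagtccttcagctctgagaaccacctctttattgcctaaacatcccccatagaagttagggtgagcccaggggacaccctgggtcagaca
Plin4: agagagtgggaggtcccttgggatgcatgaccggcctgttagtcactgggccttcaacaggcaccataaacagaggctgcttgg
The motifs were a DR1 element (AGGNCA half-sites in tandem with 1 base between them), the letters TTGC and CAA with 2 bases between them, ACGTG and TATAAA. They were searched on both strands, and none of them contains another. The windows ran from 250 bases before to 50 bases after each RefSeq promoter start. For Plin1, Plin2, Plin4 and Plin5 these starts lie inside the gene's outermost start. The motifs were held by 0.381%, 2.08%, 19.6% and 13.6% of the 32851 windows of all genes. The 14 windows of the 9 members searched held a match in 2 windows only, those of Plin2 and Hilpda shown with these genes, and 7 members had none.

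Plin2 (Entrez 11520; chr4:86626910-86670217, minus strand) encodes adipophilin, the main coat protein of macrophage lipid droplets. It was at 1359 and 1363 TPM in HFD ARMs against 1273 and 1242 TPM in HFD SMs, and at 689 and 767 TPM in ND ARMs against 615 and 627 TPM in ND SMs. The ARM libraries lay above the SM libraries in both diets, but by little. The log2 fold change was 0.10 in HFD mice (-0.03 to 0.23, edgeR adjusted p = 0.328) and 0.20 in ND mice (-0.01 to 0.41, edgeR adjusted p = 0.381), so an increase beyond 1.18-fold in HFD mice or 1.33-fold in ND mice lay outside the 95% interval. A second row carried the symbol Plin2 (Entrez 101055843, named Gm12551 in RefSeq, a transcribed pseudogene at chr4:86626857-86632221 that overlaps the end of Plin2), with 5.88 to 27.0 counts a library, and summing the rows changed no call. The counts of Plin2 were not whole numbers in 7 of the 8 libraries, as when reads are shared out between similar genes.

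Plin3 (Entrez 66905; chr17:56278962-56290511, minus strand) encodes a perilipin that moves from the cytosol onto newly made droplets. It was at 57.4 and 56.4 TPM in HFD ARMs against 52.2 and 52.6 TPM in HFD SMs, and at 42.3 and 48.6 TPM in ND ARMs against 46.6 and 43.2 TPM in ND SMs. The HFD libraries did not overlap and the ND libraries did. Its log2 fold change was 0.11 in HFD mice (-0.04 to 0.26, edgeR adjusted p = 0.361) and -0.01 in ND mice (-0.26 to 0.23, edgeR adjusted p = 0.979).

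Hilpda (Entrez 69573; chr6:29272488-29275449, plus strand), the hypoxia-inducible inhibitor of Pnpla2, was the most abundant of the members called. It was at 136 and 167 TPM in HFD ARMs against 91.8 and 98.0 TPM in HFD SMs, and at 103 and 120 TPM in ND ARMs against 56.1 and 66.4 TPM in ND SMs. The ARM libraries stood above the SM libraries in both diets. The log2 fold change was 0.67 in HFD mice (0.46 to 0.88, edgeR adjusted p = 0.00165) and 0.83 in ND mice (0.57 to 1.10, edgeR adjusted p = 0.000918). In HFD mice it lay close to the 1.5-fold threshold and fell to 0.52, under it, without replicate 2 of the HFD ARMs.

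The sequence ACGTG, the core letters of the hypoxia response element, occurred in the windows of Hilpda and Plin2, and each stretch is shown with these letters in capitals. The Hilpda stretch (chr6:29272571-29272599, plus strand) ends 27 bases before a downstream RefSeq start and lies within the gene as counted from its first start. The Plin2 stretch (chr4:86670046-86670075, minus strand) holds ACGTG on both strands, which together make up the capitals, and these span a RefSeq start that lies downstream of the gene's outermost one.
Hilpda: gatggccagcggACGTGccccagggcgag
Plin2: cagctgggctatCACGTGgctcggaggctt
Of these genes, Hilpda was called in both diets and Plin2 in neither.

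G0s2 (Entrez 14373; chr1:193272160-193273188, minus strand), the other Pnpla2 inhibitor, was low in all libraries, with 11 to 42 counts. In HFD mice it was at 4.11 and 5.94 TPM in ARMs against 1.51 and 1.67 TPM in SMs. In ND mice the order was turned, with 2.97 and 4.40 TPM in ARMs against 5.30 and 5.09 TPM in SMs. The groups did not overlap in either diet. The log2 fold change was 1.64 in HFD mice (0.83 to 2.44, edgeR adjusted p = 0.0192) and -0.54 in ND mice (-1.35 to 0.27, edgeR adjusted p = 0.596). The HFD call was lost under DESeq2 (adjusted p = 0.0847) and without any 1 of HFD ARM replicate 1, HFD ARM replicate 2 or HFD SM replicate 1, with values of 1.36 to 1.87 (edgeR adjusted p = 0.0513 to 0.234).

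Bscl2 (Entrez 14705, chr19:8837467-8848683, plus strand) was not called in either diet, and its ARM and SM libraries overlapped in both. It was at 87.4 and 89.6 TPM in HFD ARMs against 82.8 and 88.5 TPM in HFD SMs, and at 102 and 104 TPM in ND ARMs against 109 and 93.9 TPM in ND SMs. The log2 fold change was 0.04 in HFD mice (-0.10 to 0.19) and -0.03 in ND mice (-0.25 to 0.20), with edgeR adjusted p-values of 0.772 and 0.951. Its gene overlaps Gng3 on the other strand, with the same limit on strand as for Plin4.

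Plin5 (Entrez 66968; chr17:56111597-56117606, minus strand), the perilipin of oxidative tissues such as heart and brown fat, had 2 and 4 counts in HFD ARMs, 3 and 1 in HFD SMs, 6 and 6 in ND ARMs and 2 and 0 in ND SMs. Summed over libraries, ND ARMs had 12 counts against 2 in SMs, a ratio of 5.99 with an exact 95% interval of 1.33 to 55.1 that covers counting error only. The HFD sums of 6 and 4 gave a ratio of 1.52 (0.361 to 7.34). Cidea (Entrez 12683), the brown-fat relative of Cidec, had 1 count in each HFD ARM library and 1 and 0 in the HFD SM libraries, all under the 3 counts taken as the floor.

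**Figure D2:**
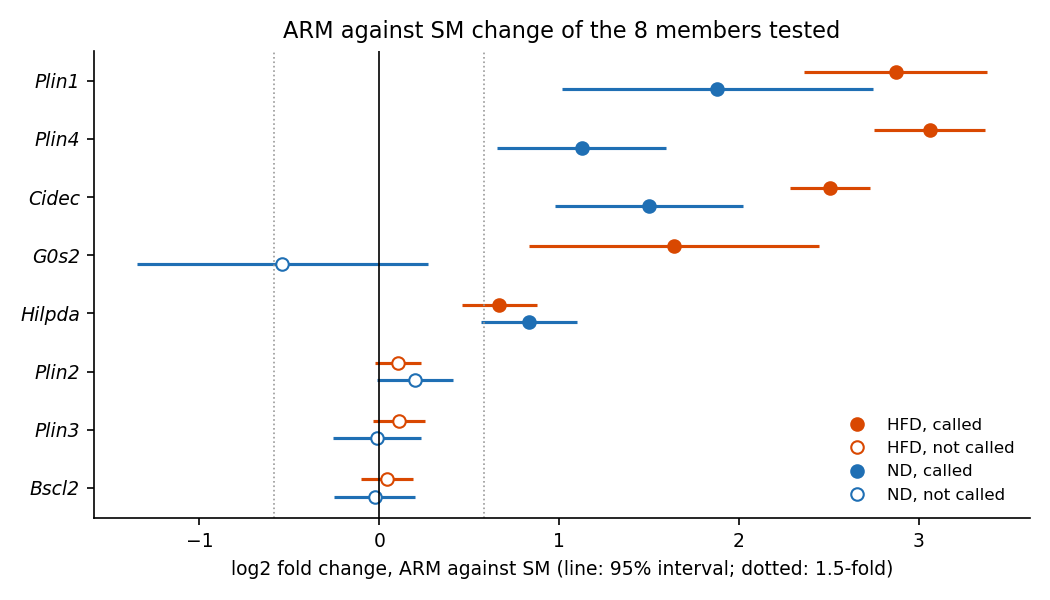
Fitted log2 fold change of ARMs against SMs for the 8 members tested, with its 95% interval, in HFD and ND mice; filled points were called and dotted lines mark 1.5-fold. Plin4, Plin1 and Cidec lie at 2.51 to 3.06 in HFD mice and 1.12 to 1.88 in ND mice, the intervals of Plin2, Plin3 and Bscl2 include 0, and G0s2 is at 1.64 on HFD and -0.54 on ND.

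The adipocyte-type genes were next set against the broadly expressed ones within each library, as the mean log2(TPM + 1) of Plin1, Plin4 and Cidec less that of Plin2 and Plin3. This difference was -4.19 and -4.24 in HFD ARMs against -6.33 and -6.36 in HFD SMs. It was -4.42 and -3.72 in ND ARMs against -5.34 and -4.97 in ND SMs. Every ARM library thus held more adipocyte-type transcript for its Plin2 and Plin3 than every SM library of the same diet, by 2.13 on the log2 scale in HFD mice and 1.09 in ND mice. As a share of Plin2, Cidec was at 3.03% and 3.14% in the HFD ARM libraries against 0.543% and 0.623% in the HFD SM libraries, and at 2.75% and 4.74% in ND ARMs against 1.35% and 1.72% in ND SMs.

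Other genes of adipocytes moved with these members. Of 15 adipocyte markers, all of which were tested, 13 were called higher in HFD ARMs and 10 in ND ARMs (12 and 4 by DESeq2), and their median log2 fold change was 2.28 and 1.18. Their summed level was 870 and 981 TPM in HFD ARMs against 406 and 420 TPM in HFD SMs, and 866 and 1233 TPM in ND ARMs against 559 and 679 TPM in ND SMs, with none of the markers at 0 in any library. The secreted adipokine genes Adipoq (27.8 and 33.4 TPM against 4.08 and 4.33 TPM) and Lep (13.9 and 16.5 TPM against 1.72 and 2.10 TPM) had log2 fold changes of 2.85 and 2.98 in HFD mice and 1.47 and 1.17 in ND mice, all called. Lpl, the lipoprotein lipase gene that macrophages also express, was at 390 and 468 TPM in HFD ARMs against 267 and 277 TPM in HFD SMs, with log2 fold changes of 0.65 in HFD mice (called) and 0.37 in ND mice (edgeR adjusted p = 0.0965).

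Set against Adipoq within each library, the members fell into distinct patterns. The ratio of Plin1 to Adipoq, in TPM, was 0.208 to 0.275 in the 4 ARM libraries and 0.172 to 0.245 in the 4 SM libraries, and its highest value over all 8 was 1.60 times its lowest. That span was 1.63 times for Cidec (1.10 to 1.79) and 2.03 times for Plin4 (0.215 to 0.436), and over all 8 libraries the ARM and SM values of each of these genes overlapped. Within a diet they did not always overlap. Cidec was lower relative to Adipoq in HFD ARMs (1.48 and 1.28) than in HFD SMs (1.7 and 1.79), and Plin4 was lower in ND ARMs (0.324 and 0.303) than in ND SMs (0.436 and 0.382). Plin2, in contrast, was at 26.6 to 48.8 times Adipoq in ARMs and 64.0 to 312 times in SMs, a span of 11.7 times, and the ratios of Plin3, Hilpda, G0s2 and Bscl2 were also lower in every ARM library than in every SM library. In bulk samples, fewer cells of a type and less RNA per cell cannot be told apart, and the part of adipocyte RNA in the members' differences was not tested.

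**Figure D3:**
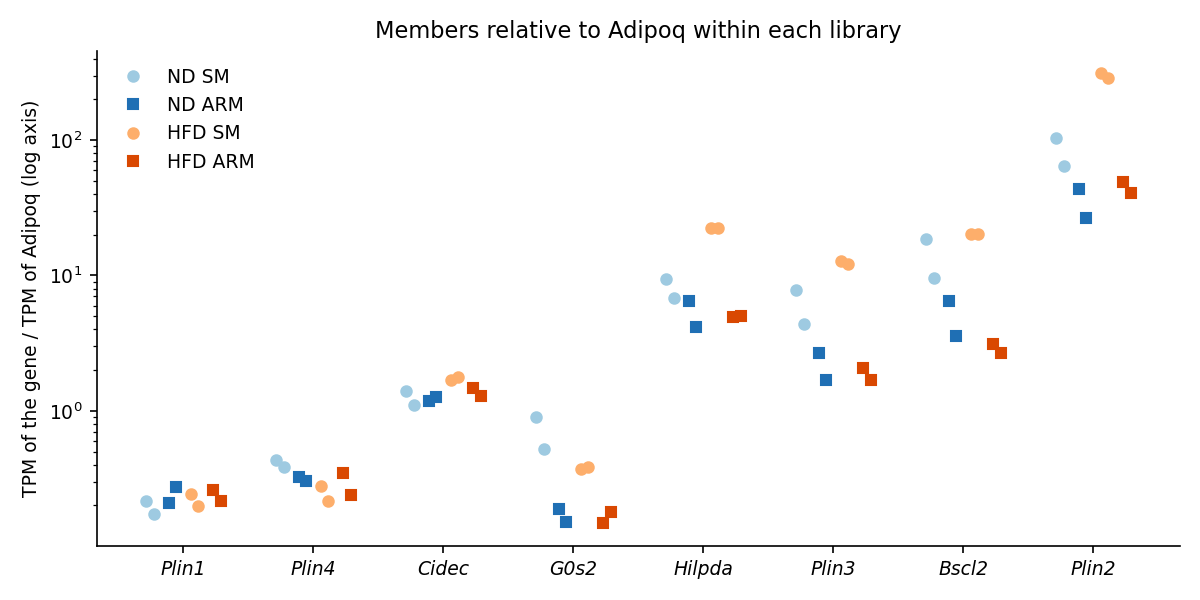
TPM of each member divided by the TPM of Adipoq in the same library, on a log axis, with a point per library. Plin1 lies at 0.172 to 0.275, Plin4 at 0.215 to 0.436 (lower in ARMs than in SMs on ND) and Cidec at 1.10 to 1.79 (lower in ARMs than in SMs on HFD), whereas Plin2 lies at 26.6 to 48.8 in ARMs and 64.0 to 312 in SMs.

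Markers of other cell types also differed between the sorted groups. Of 8 endothelial markers, 7 were called higher in HFD ARMs and 1 in ND ARMs, with summed levels of 103 to 108 TPM in HFD ARMs, 30.1 to 43.3 TPM in HFD SMs, 26.1 to 57.5 TPM in ND ARMs and 20.4 to 23.9 TPM in ND SMs. Of 8 fibroblast and progenitor markers, 5 and 6 were called higher, with sums of 339 to 419 TPM against 227 to 253 TPM in HFD mice and 439 to 643 TPM against 148 to 208 TPM in ND mice. Of 6 mesothelial markers, 0 were called by edgeR or DESeq2 in HFD mice (23.5 to 34.9 TPM against 15.1 to 29.0 TPM, with 1 at an unadjusted p under 0.05 in edgeR) and 5 in ND mice (34.4 to 46.3 TPM against 9.38 to 13.1 TPM). No marker of these 3 lists was at 0 in any library. Replicate 2 of the ND ARMs had the larger sum of the pair for all 4 of the adipocyte, endothelial, progenitor and mesothelial lists and the larger Plin1, Plin4 and Cidec. The part of these cells in the members' differences was not tested. Of 10 markers of lipid-associated macrophages, 5 were called higher in HFD ARMs and 4 in ND ARMs (4 and 3 by DESeq2). The largest change in HFD mice was that of Gpnmb (90.7 and 107 TPM against 41.1 and 37.6 TPM). Trem2 (log2 fold change 0.09 on HFD and -0.002 on ND), Lgals3, Cd63, Lipa and Ctsd were called in neither diet. Of these, Lgals3 missed only the 1.5-fold threshold, at 0.57 on HFD (edgeR adjusted p = 0.00134) and 0.37 on ND (edgeR adjusted p = 0.0324). Of 4 brown-fat genes 2 were tested, with 0 called and 0 at an unadjusted p under 0.05 by edgeR or DESeq2. Dio2 and Ppargc1a were at 0 in some libraries.

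The question whether diet changed the ARM against SM difference was asked in one fit of all 8 libraries. For Plin4 the difference was larger in HFD mice, by 1.92 on the log2 scale (standard error 0.34, edgeR adjusted p = 0.0389), and this was 1 of the 8 members tested, where 0.165% of 13358 genes were called in either direction. The values behind it were 1.13 and 0.93 TPM in HFD SMs against 2.58 and 3.74 TPM in ND SMs, with overlapping ARM libraries (9.60 and 7.99 TPM on HFD, 5.15 and 8.75 TPM on ND). The call was kept without either of the ND ARM libraries and lost without any 1 of the other 6 (1.68 to 2.17, highest edgeR adjusted p = 0.206). G0s2 had a larger fitted difference of 2.16 (standard error 0.51), from a change that was positive in HFD mice and negative in ND mice, but it did not pass (edgeR adjusted p = 0.132). Cidec (1.0, edgeR adjusted p = 0.394) and Plin1 (0.98, edgeR adjusted p = 0.776) did not pass either, and Plin2, Plin3, Hilpda and Bscl2 had differences between -0.18 and 0.11.

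The HFD and ND tables were not made alike, with 32.3% to 32.9% of counts not whole in the HFD libraries and 8.55% to 9.36% in the ND libraries, so levels are set side by side across diets without a test, and the diet and the table cannot be told apart. Plin2 was at 1258 TPM ± 22.0 (SD, n = 2) in HFD SMs against 621 TPM ± 8.20 in ND SMs, 2.02 times, and at 1361 TPM ± 2.86 in HFD ARMs against 728 TPM ± 54.9 in ND ARMs, 1.87 times. Hilpda was 1.55 times as high on HFD in SMs and 1.36 times in ARMs, and Plin3 1.17 and 1.25 times, and no HFD library of these genes overlapped the ND libraries of the same cell type. Among SMs the adipocyte-type genes went the other way, at 0.326 times for Plin4, 0.628 times for Plin1 and 0.768 times for Cidec, as did G0s2 (0.306 times) and Bscl2 (0.843 times). Among ARMs, Cidec was 1.52 times as high on HFD, Plin1, Plin4 and G0s2 overlapped between diets, and Bscl2 was 0.858 times as high. Thus 8 of 8 members did not overlap between diets in SMs, where 71.7% of the 12343 genes tested in both diets did not, and 5 of 8 in ARMs, where that share was 71.5%, so a gap between diets was the rule among all genes.

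**Figure D4:**
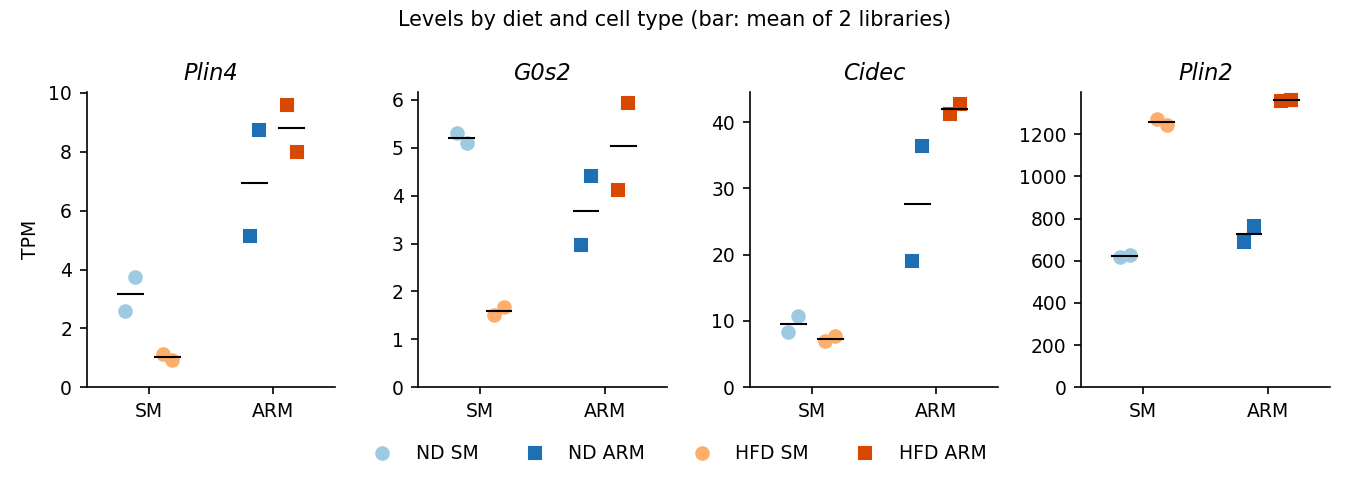
Levels of Plin4, G0s2, Cidec and Plin2 in SMs and ARMs of ND and HFD mice, in TPM, with a point per library and a bar at the mean of 2 libraries; each panel has its own axis from 0. Plin4 and G0s2 are lower in HFD SMs (0.93 to 1.13 and 1.51 to 1.67 TPM) than in ND SMs (2.58 to 3.74 and 5.09 to 5.30 TPM), whereas Plin2 is higher on HFD in both cell types.

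Beyond the coat proteins, a list of 30 other genes of lipid droplet making and breakdown was examined. Of these, 27 were tested in HFD mice, where 7 were called higher and 0 lower in ARMs (7 and 0 by DESeq2, with 2 lower at an unadjusted p under 0.05 in edgeR), and 26 in ND mice, where 6 were called higher and 0 lower (4 and 0 by DESeq2, with 0 lower at an unadjusted p under 0.05 in edgeR). The median log2 fold change of the list was 0.20 in either diet. The ND count was 2 when ND ARM replicate 2 was left out and 3 when ND SM replicate 1 was, and the HFD count was 5 to 7 with each library left out. Under limma on log2(TPM + 1) without a filter the count was 0 in both diets, and under limma with the filter it was 7 in HFD mice and 2 in ND mice.

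Among the lipases, Mgll, which cleaves the last fatty acid from monoglyceride, was at 27.0 and 26.8 TPM in HFD ARMs against 8.04 and 5.18 TPM in HFD SMs, a log2 fold change of 1.99 (edgeR adjusted p = 2.35e-05), and had a log2 fold change of 1.10 in ND mice (edgeR adjusted p = 0.0257). Pnpla3, a relative of the adipose triglyceride lipase, was low (2.13 and 2.31 TPM against 0.77 and 0.65 TPM in HFD mice) and was called in both diets, at 1.63 and 1.94. Pnpla2 itself, which takes the first fatty acid off triglyceride, was at 153 and 147 TPM in HFD ARMs against 121 and 120 TPM in HFD SMs, a log2 fold change of 0.30 that was under the 1.5-fold threshold (edgeR adjusted p = 0.0135), and it had a value of 0.32 in ND mice (edgeR adjusted p = 0.179). Lipe, the hormone-sensitive lipase, had values of 0.30 and 0.28 and was not called, and Abhd5, the coactivator of Pnpla2 that Plin1 binds, had values of -0.04 and -0.09. The first lipase of the pathway and its coactivator were thus not called in either diet. Of the inhibitors of this lipase, Hilpda was called in both diets, close to the 1.5-fold threshold in HFD mice. G0s2, the other inhibitor, was called in HFD mice only and had a log2 fold change of -0.54 in ND mice. Its HFD call rested on 11 to 42 counts a library and was lost under DESeq2 (DESeq2 adjusted p = 0.0847).

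Among the enzymes of triglyceride synthesis, Dgat2 was at 22.0 and 30.1 TPM in HFD ARMs against 7.51 and 8.59 TPM in HFD SMs, a log2 fold change of 1.68 (edgeR adjusted p = 0.000126), and at 13.2 and 23.8 TPM against 6.94 and 6.23 TPM in ND mice, a log2 fold change of 1.46 (edgeR adjusted p = 0.00145). Dgat1, which carries out the same last step, was not called, at 0.20 and 0.07. The droplet-budding genes Fitm2 (-0.03 and 0.00) and Fitm1 (0 to 3 counts a library, not tested) and the third Cide gene, Cideb (0 to 2.10 counts, not tested), added no call.

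The caveolar genes Cav1 (1.60 and 1.17), Cavin1 (0.77 and 0.76) and Cavin2 (1.26 and 1.12), whose proteins form the surface pits of adipocytes and endothelial cells and can reach droplets, were called higher in ARMs of both diets. Cav1 was at 64.4 and 66.8 TPM in HFD ARMs against 25.1 and 18.6 TPM in HFD SMs. The study reports its protein as a marker of ARMs, found by flow cytometry in most ARMs and few SMs of HFD mice. Pparg, the nuclear receptor that drives many lipid droplet genes, was called in HFD mice, at 28.7 and 33.1 TPM against 19.6 and 19.0 TPM (log2 fold change 0.66, edgeR adjusted p = 0.00134), and not in ND mice (0.27, edgeR adjusted p = 0.463).

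**Figure D5:**
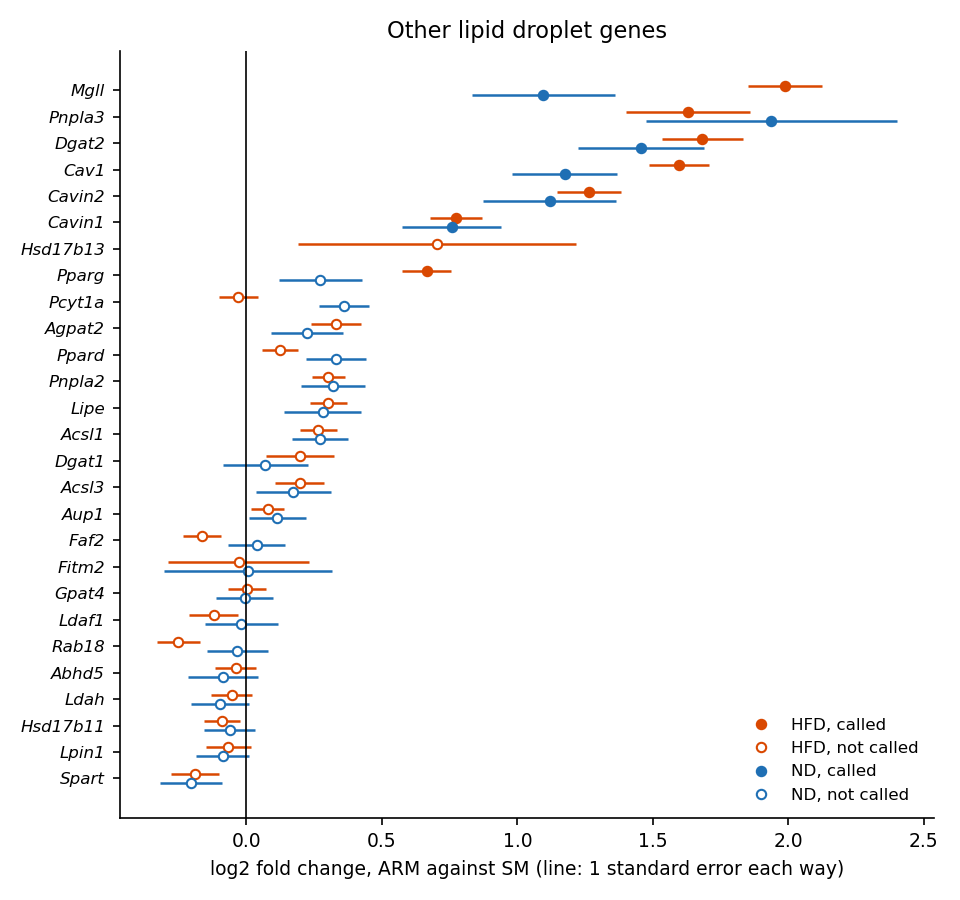
Fitted log2 fold change of ARMs against SMs for the other lipid droplet genes tested, in HFD and ND mice, with lines of 1 standard error each way and filled points for called genes. Mgll, Pnpla3, Dgat2, Cav1, Cavin1 and Cavin2 are called in both diets and Pparg in HFD mice, whereas most of the list lies near 0.

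Finally, the genes whose level followed Plin1 and Plin2 most closely were listed, by Pearson's r of log2 normalized counts over the 8 libraries, centred within each diet, among 12342 genes. These points share their libraries and the ARM and SM contrast, so the values are descriptions. For Plin1 they were Cidec (0.997), Aoc3 (0.996), Cdo1 (0.995), Gpat3 (0.994) and Sncg (0.994). Aoc3, which encodes an amine oxidase of fat cells and vessels, Cdo1, which encodes cysteine dioxygenase, and Sncg had log2 fold changes of 1.95, 1.47 and 1.85 in HFD mice, all called, while Gpat3, an acyltransferase of triglyceride synthesis, was under 1.1 TPM and was not called. For Plin2 they were Rhoj (0.994), Sntb2 (0.993), Ace (0.993), Cyr61 (0.99) and Sh3d21 (0.986), of which none was called in HFD mice, where the log2 fold changes, at 0.13 to 0.55, were under the 1.5-fold threshold. In ND mice Ace (1.14, edgeR adjusted p = 0.00309) and Cyr61 (0.67, edgeR adjusted p = 0.0354) were called and the other 3 were not.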

How the data were processed

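RNA-seq of sorted ARMs and SMs was analysed in 8 libraries, 2 per group of cell type and diet. The authors deposited, for each diet, a table of estimated counts and TPM per gene, and the labels name the build mm10. The aligner, counter and annotation are not given in the sources used here. Counts were rounded and fitted by diet with edgeR 4.0.16 in R 4.3.3 (TMM, filterByExpr, quasi-likelihood test, Benjamini-Hochberg adjustment). A gene was called at a fold over 1.5 and an adjusted p under 0.05, and the difference between diets at an adjusted p under 0.05. On simulated data the HFD fit recovered 93.9% of genes changed 2-fold and the ND fit 89%. The simulation gave every gene the same dispersion and changed only genes that had passed the filter. It thus lacked differences in spread between genes, and recovery of real genes may be lower. Depth was 14508824 to 19040133 counts, and the reads carried no molecular identifiers, so intervals of single counts cover counting error only.

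The members and all gene lists were chosen with earlier results of these data known. Named were every member, the called genes of the other lipid droplet list with Pnpla2, Abhd5, Lipe, Mgll, Dgat1, Dgat2, Fitm1, Fitm2 and Cideb, then Adipoq, Lep and Lpl, and the 5 genes most like Plin1 and Plin2. Other markers were named as examples after their values were seen. Lipe and Acsl1 are in both the adipocyte and the lipid droplet list. Of rows sharing a symbol, the one with more counts was used. Promoter sequences are RefSeq's. Alternatives were upper-quartile factors, library totals, DESeq2 1.42.0, limma 3.58.1 on log2(TPM + 1) and log2(TPM + 0.1), other filters, the threshold of an unadjusted p under 0.05 with a log2 fold change over 0.6, one fit of all libraries, the replicate block, summed Plin2 rows, and each library left out. The authors' FPKM and mean columns were not used. Plots were made in Python 3.11.15 (matplotlib 3.10.9).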

Additional observations from a re-analysis of the deposited data

Results flagged for a closer look

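The ARM against SM change of Plin4 differed between diets by a test of the difference itself. It was larger in HFD mice by 1.92 on the log2 scale (edgeR adjusted p = 0.0389), where the log2 fold change was 3.06, than in ND mice, where it was 1.12, and both ARM libraries stood above both SM libraries in each diet. With each library left out in turn, the Plin4 difference ran from 1.62 to 2.36. Its call was lost without any single HFD library or ND SM library. The other 7 members tested did not pass the test of the difference. Groups of 2 libraries are too small to single out an outlying library.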

How the results depend on the processing

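Members called higher in HFD ARMs numbered 5, and 3 (Plin1, Plin4 and Cidec) without a filter on low counts and under limma on log2(TPM + 1) without a filter, and 3 to 5 with each replicate left out. Members called higher in ND ARMs numbered 4, but 2 (Cidec and Hilpda) under limma on log2(TPM + 1) or log2(TPM + 0.1), 0 under limma on log2(TPM + 1) without a filter (where 1899 genes had an unadjusted p under 0.05), and 2 to 4 with each replicate left out. Plin1, Plin4 and Cidec were called in HFD mice under every alternative run. Members with a difference between diets numbered 1, and 0 to 2 with each replicate left out. Other lipid droplet genes called numbered 5 to 7 in HFD mice and 2 to 6 in ND mice with each replicate left out, 0 in both diets under limma on log2(TPM + 1) without a filter, and 2 in ND mice under limma on log2(TPM + 1) or log2(TPM + 0.1), alternatives chosen for this list after seeing the data. The adipocyte-type less broadly expressed difference between ARMs and SMs in HFD mice was 2.65 on log2(TPM + 0.1) and 2.71 on the log2 of TMM-scaled counts, against 2.13 on log2(TPM + 1). Near 0 in ND mice, Plin3 turned from -0.01 to 0.02 and Bscl2 from -0.03 to 0.03 under the limma fits, and leaving out single libraries gave -0.12 to 0.08 and -0.13 to 0.09. The difference between diets of Bscl2 ran from -0.03 to 0.18. The cause of these changes was not tested.

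With the replicate number as a replicate block, 5 members were called in HFD mice, 4 in ND mice and 3 (Plin4, Cidec and G0s2) for the difference between diets. The differences of same-numbered libraries correlated at -0.03 in HFD mice and 0.22 in ND mice over 2 pairs each, so the numbers were not taken as pairs. Over all genes, DESeq2 called 400 higher in HFD ARMs and 273 in ND ARMs, where edgeR called 595 and 442; without a filter edgeR called 167 in HFD mice, and with the block 719 in ND mice. Limma without a filter called 46 and 0, limma with it 235 to 237 in ND mice, and the unadjusted threshold 922 and 794. For the difference between diets, edgeR called 9 genes with a larger and 13 with a smaller change in HFD mice, DESeq2 34 and 62, edgeR without a filter 15 and 26, and with the block 53 and 134. Depth limits Plin5, Cidea and G0s2, with 42 or fewer counts in any library.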
